A study of Mus musculus with 6 samples.

Results

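The 10 genes described here, Acaca, Acacb, Acly, Fasn, Scd1, Scd2, Elovl6, Srebf1, Fads1 and Fads2, encode enzymes of fatty acid synthesis and desaturation and a transcription factor that controls them. They were chosen by name from the 34245 genes with an expression value, and all 10 were found. RNA-seq was performed on 3 peripheral T-cell lymphomas (PTCL) of FVB mice that carry a germline deletion of 1 Dnmt3b allele (Dnmt3b+/-). Each tumor was isolated from lymph node once the mouse was terminally sick, and no sorting of its cells before RNA-seq is given in the sources used here. The labels number the tumors 1 to 3 and give no age. Whole-genome bisulfite libraries of 2 Dnmt3b+/- and 1 Dnmt3a-/- PTCL are part of the same study and were not analysed here. All 3 tumors are of the same group, so no groups could be tested against each other. Differences between tumors are differences between single libraries, in which animal, tumor, the tissue taken and library cannot be told apart.

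In fatty acid synthesis, citrate exported from mitochondria is split to acetyl-CoA, acetyl-CoA is carboxylated to malonyl-CoA, and fatty acid synthase joins these units to palmitate. Elongases and desaturases then lengthen palmitate and add double bonds, and SREBP-1 is a main activator of the genes for these steps. Lymphocytes that grow and divide need fatty acids for their membranes, while adipose tissue and liver make them for storage and export, and these transcripts are therefore not particular to 1 kind of cell.

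Expression is given in FPKM, the fragments of a gene scaled both to the size of the library and to exon length, which allows levels to be compared between genes. The FPKM are scaled to a depth of 30726570, 18969988 and 20770928 reads in tumors 1, 2 and 3, and reads per gene were recovered from them. Intervals from these reads are exact 95% intervals and cover counting error only. Of the 10 genes, 8 had 1 FPKM or more in every tumor, against 28.4% of all genes, and the exceptions were Acacb and Fads2. By their mean FPKM, on the lengths behind the deposited values, the genes fell in the order Acly, Scd2, Fasn, Srebf1, Fads2, Elovl6, Fads1, Scd1, Acaca and Acacb. The ranges over the tumors overlapped for 8 of the 9 pairs of neighbors in this order, and only Acaca and Acacb lay apart. Without tumor 2, 2 of the 10 genes kept their place in this order, and 6 did without tumor 3. At a threshold of 5 FPKM, 4 of the genes passed in every tumor, and the share of all genes was not calculated at that threshold.

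**Figure D1:**
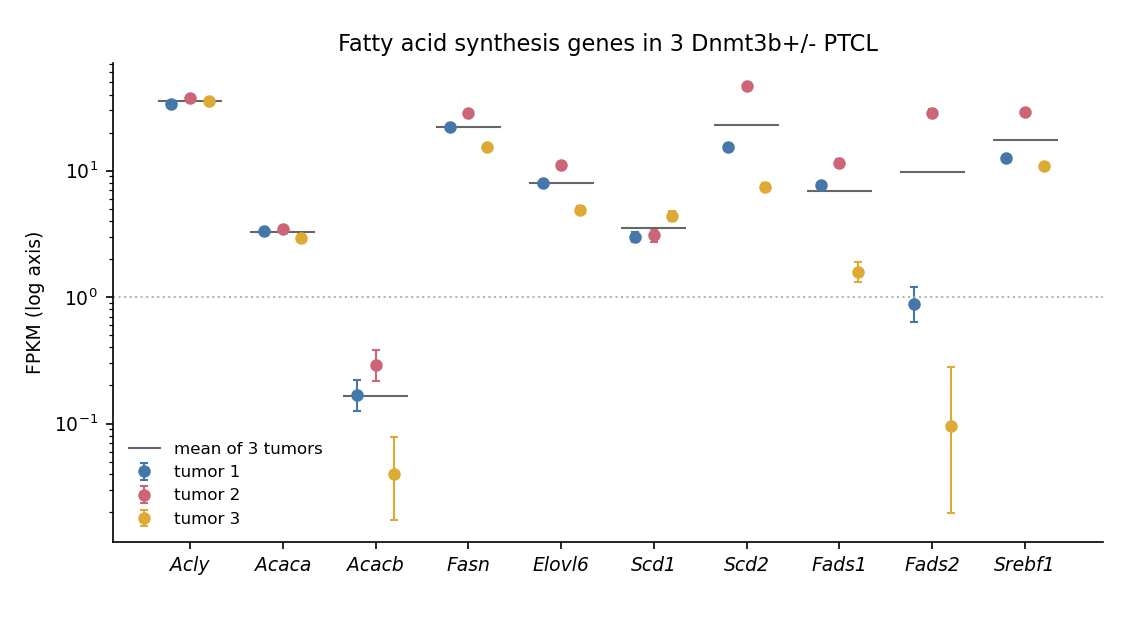
FPKM of the 10 genes in each of 3 Dnmt3b+/- PTCL on a log axis, with exact 95% Poisson intervals from the recovered reads, a line at the mean and a dotted line at 1 FPKM. Acly and Acaca lie close together in the 3 tumors, while Fads2 ranges from 0.0958 to 28.5 FPKM.

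Acly, ATP citrate lyase, provides the cytosolic acetyl-CoA from which fatty acids are built. It had 33.7 FPKM in tumor 1 (5464 reads), 37.8 in tumor 2 (3789 reads) and 35.3 in tumor 3 (3868 reads). With a mean of 35.6 ± 2.09 FPKM (SD, n = 3) it was the most abundant of the 10 genes by mean, and it ranked 903, 797 and 800 among all genes in tumors 1, 2 and 3. Its level differed by 1.12-fold between the highest and the lowest tumor, the smallest range among the 10 genes on FPKM, but with median-of-ratios factors its ratio of 1.25 was above the 1.15 of Acaca. Acly (ENSMUSG00000020917) lies on the minus strand of chromosome 11 of mm10 from 100476353 to 100528000. The 300 bases from 250 before to 50 after its start are shown because Acly is the high and even member, with the letters GGGCGG and CCAAT in capitals on either strand, at chr11:100527951-100528250 (minus strand, GRCm38.p6, RefSeq).
Acly: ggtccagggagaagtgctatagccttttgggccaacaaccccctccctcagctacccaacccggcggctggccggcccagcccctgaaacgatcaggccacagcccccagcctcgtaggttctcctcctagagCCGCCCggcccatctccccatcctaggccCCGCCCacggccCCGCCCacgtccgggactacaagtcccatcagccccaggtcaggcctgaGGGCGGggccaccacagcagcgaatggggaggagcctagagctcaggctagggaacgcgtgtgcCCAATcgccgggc
The window holds 4 matches to GGGCGG, the core of an Sp1 site, and 1 to CCAAT, the core of an NF-Y site.

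Acaca encodes acetyl-CoA carboxylase 1, the cytosolic enzyme that makes malonyl-CoA and commits acetyl-CoA to fatty acid synthesis. Tumor 1 had 3.35 FPKM (1755 reads), tumor 2 had 3.46 (1120 reads) and tumor 3 had 2.94 (1044 reads). Its mean came to 3.25 ± 0.270 FPKM (SD, n = 3), and its highest tumor had 1.17 times the FPKM of its lowest. The ratio of tumor 2 to tumor 1 was 1.03 on FPKM, with a counting interval of 0.958 to 1.11 that includes 1. It was 0.943 with FPKM rescaled to the same sum in every library and 1.15 with median-of-ratios factors. The direction of this small difference thus depended on the scaling. Acaca was far lower than Acly and Fasn, the enzymes before and after it, on a length of 17074 bases for all its exons, where its longest annotated transcript has 9513. Acaca (ENSMUSG00000020532) spans chromosome 11 from 84129672 to 84401651 on the plus strand. Its RefSeq promoter window lies at a start within the gene, 65766 bases downstream of the first base of this span, at chr11:84195188-84195487 (plus strand, GRCm38.p6), and is shown as the window of the gene that gives the pathway its name. It has 1 CpG and none of the letters searched, so no base is in capitals.
Acaca: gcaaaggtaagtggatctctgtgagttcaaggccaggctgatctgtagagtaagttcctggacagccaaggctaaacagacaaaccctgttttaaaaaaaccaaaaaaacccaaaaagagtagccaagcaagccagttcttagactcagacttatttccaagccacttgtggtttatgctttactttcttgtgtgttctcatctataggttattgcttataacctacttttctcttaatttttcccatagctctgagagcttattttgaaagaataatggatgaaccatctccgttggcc
The FPKM cover all exons of the gene and do not tell transcripts from this start and from the upstream start apart.

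Acacb encodes acetyl-CoA carboxylase 2 at the outer mitochondrial membrane, whose malonyl-CoA blocks the entry of fatty acids into mitochondria. It had 0.169, 0.290 and 0.0400 FPKM in tumors 1, 2 and 3, with 50, 53 and 8 reads behind these values. Tumor 2 was 7.25-fold above tumor 3, with a counting interval of 3.43 to 17.7. Without tumor 2 its mean of 0.166 FPKM was 0.104. Acaca therefore held nearly all carboxylase expression, 95.2%, 92.3% and 98.7% of the summed FPKM of both genes in tumors 1, 2 and 3, with a mean of 95.4% ± 3.20 (SD, n = 3).

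Fasn, fatty acid synthase, builds palmitate from acetyl-CoA and malonyl-CoA. Tumor 1 had 22.1 FPKM (7448 reads), tumor 2 had 28.8 (5981 reads) and tumor 3 had 15.3 (3481 reads), with a mean of 22.1 ± 6.75 (SD, n = 3). Tumor 2 was the highest and tumor 3 the lowest, 1.88-fold apart with a counting interval of 1.80 to 1.96. Fasn (ENSMUSG00000025153) lies on the minus strand of chromosome 11 from 120805846 to 120824547. Its window at chr11:120824498-120824797 (minus strand, GRCm38.p6, RefSeq) is shown as that of the synthase itself, with CCAAT and its reverse complement in capitals.
Fasn: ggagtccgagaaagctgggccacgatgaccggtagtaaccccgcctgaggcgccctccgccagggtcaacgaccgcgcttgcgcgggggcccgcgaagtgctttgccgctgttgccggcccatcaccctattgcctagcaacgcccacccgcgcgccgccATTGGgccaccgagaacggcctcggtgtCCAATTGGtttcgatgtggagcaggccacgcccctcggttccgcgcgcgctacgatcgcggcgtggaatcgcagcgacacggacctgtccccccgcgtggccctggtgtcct
It holds 3 matches to CCAAT, of which 2 lie on opposite strands and overlap each other, and 39 CpG, more than 95.6% of the 32851 promoter windows of all genes.

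Elovl6 encodes the elongase that extends palmitate to stearate. It had 8.01, 11.1 and 4.91 FPKM in tumors 1, 2 and 3, with 1583, 1352 and 656 reads behind these values. The order of the tumors was that of Fasn, and tumor 2 was 2.26-fold above tumor 3 with a counting interval of 2.05 to 2.48. The mean was 8.001 ± 3.09 FPKM (SD, n = 3).

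Scd1 and Scd2 encode stearoyl-CoA desaturases, which make monounsaturated fatty acids, Scd1 being the main form in liver and adipose tissue. Scd2 had 15.3 FPKM in tumor 1 (2567 reads), 46.4 in tumor 2 (4804 reads) and 7.49 in tumor 3 (848 reads). It was the most abundant of the 10 genes in tumor 2, where it ranked 630 among all genes, and its mean of 23.1 ± 20.6 FPKM (SD, n = 3) was 11.4 without tumor 2. Scd1 had 2.99, 3.08 and 4.40 FPKM from 445, 283 and 442 reads, with a mean of 3.49 ± 0.787 (SD, n = 3). It was the only one of the 10 genes with its highest FPKM in tumor 3, which was also its highest tumor under both other scalings of the libraries. Between tumors 2 and 3 the genes thus differed in opposite directions, also under both other scalings. Scd2 was 6.20-fold higher in tumor 2, with a counting interval of 5.76 to 6.68, while Scd1 had 0.701 times the FPKM of tumor 3, with an interval of 0.602 to 0.816. Scd2 held 83.6%, 93.8% and 63.0% of the summed FPKM of both genes in tumors 1, 2 and 3. They are similar in sequence, and reads that fit both equally would fall below the minimum mapping quality at which the authors counted reads.

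Fads1 and Fads2 encode the front-end desaturases of polyunsaturated fatty acid synthesis, and Fads2 acts at the rate-limiting step. Fads1 had 7.66 FPKM in tumor 1 (813 reads), 11.5 in tumor 2 (755 reads) and 1.59 in tumor 3 (114 reads). Fads2 had 0.885 FPKM in tumor 1 (41 reads), 28.5 in tumor 2 (816 reads) and 0.0958 in tumor 3 (3 reads). Tumor 2 was thus high in Fads2 and the other tumors were low, and no other member had such a range. Tumor 2 was 32.2-fold above tumor 1, with a counting interval of 23.6 to 45.3, and 298-fold above tumor 3, with an interval of 102 to 1447 that is wide because of the 3 reads. The FPKM of Fads2 rest on a length of 1508 bases, recovered from the values, while all its annotated exons span 3295 bases. Its longest annotated transcript, of 3150 bases, also has 1508 bases when its ends are set to the deposited span of the gene. The level of Fads2 and its place among the 10 genes depend on this length, and its ratios between tumors do not. The mean of Fads2, 9.84 ± 16.2 FPKM (SD, n = 3), was 0.490 without tumor 2. Fads1 was 7.25-fold higher in tumor 2 than in tumor 3, with an interval of 5.95 to 8.91, but only 1.504-fold higher than in tumor 1. The share of Fads2 in the summed FPKM of both genes was 10.4%, 71.2% and 5.69% in tumors 1, 2 and 3, so that Fads2 exceeded Fads1 in tumor 2 alone. Without tumor 2 the mean share of 29.1% was 8.02%. The share also depends on the length of Fads2 and on that of Fads1, 3456 bases where all its annotated exons span 4812. In recovered reads, not scaled to length, the mean share of Fads2 over the tumors was 19.8%.

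Among the 12262 genes with 1 FPKM or more in at least 1 tumor, Fads2 ranked 28 by the ratio of tumor 2 to the next highest tumor, 29.1-fold on FPKM + 0.1. This rank is a description, since Fads2 was singled out after its values were seen and passed the filter through tumor 2 alone. A ratio as large was found for 19 genes with 10 FPKM or more in tumor 2, Fads2 included. Fads2 (ENSMUSG00000024665) lies on the minus strand of chromosome 19 from 10064164 to 10101503. Its window at chr19:10101454-10101753 (minus strand, GRCm38.p6, RefSeq) is shown because this gene differed most between tumors, with GGGCGG in capitals.
Fads2: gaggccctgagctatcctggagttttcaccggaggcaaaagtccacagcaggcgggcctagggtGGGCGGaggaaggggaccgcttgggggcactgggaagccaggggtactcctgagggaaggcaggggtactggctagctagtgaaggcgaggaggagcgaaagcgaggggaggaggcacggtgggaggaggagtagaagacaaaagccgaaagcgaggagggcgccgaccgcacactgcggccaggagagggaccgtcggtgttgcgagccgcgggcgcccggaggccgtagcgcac
It holds 23 CpG and 1 match to GGGCGG. The 3 tumors were not compared for methylation of this window.

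Fads1 and Fads2 are neighbors on chromosome 19, 81.4 kb apart, and Scd2 and Scd1 lie 87.6 kb apart with Scd4 between them. Fads3, a related gene beside Fads2, had 0.398, 0.951 and 0.0147 FPKM in tumors 1, 2 and 3, with 40, 59 and 1 reads behind these values. Its order of tumors was that of Fads1 and Fads2, found for 17.6% of all genes with 1 FPKM or more in at least 1 tumor. The next genes on either side were more even or followed another order. Fen1, on the side of Fads1, had 19.3, 20.02 and 15.5 FPKM, and Fth1, on the other side, had 382, 383 and 283 FPKM. Both were more even but had the same order of tumors as Fads2. Rab3il1, between Fth1 and Fads3, had 1.64 FPKM in tumor 1, its highest, against 0.522 and 0.0954 in the others. In the other cluster, Scd3 had at most 5 reads and Scd4 at most 10 reads in a tumor. These neighbors were listed after the values of Fads2 and Scd2 had been seen.

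**Figure D2:**
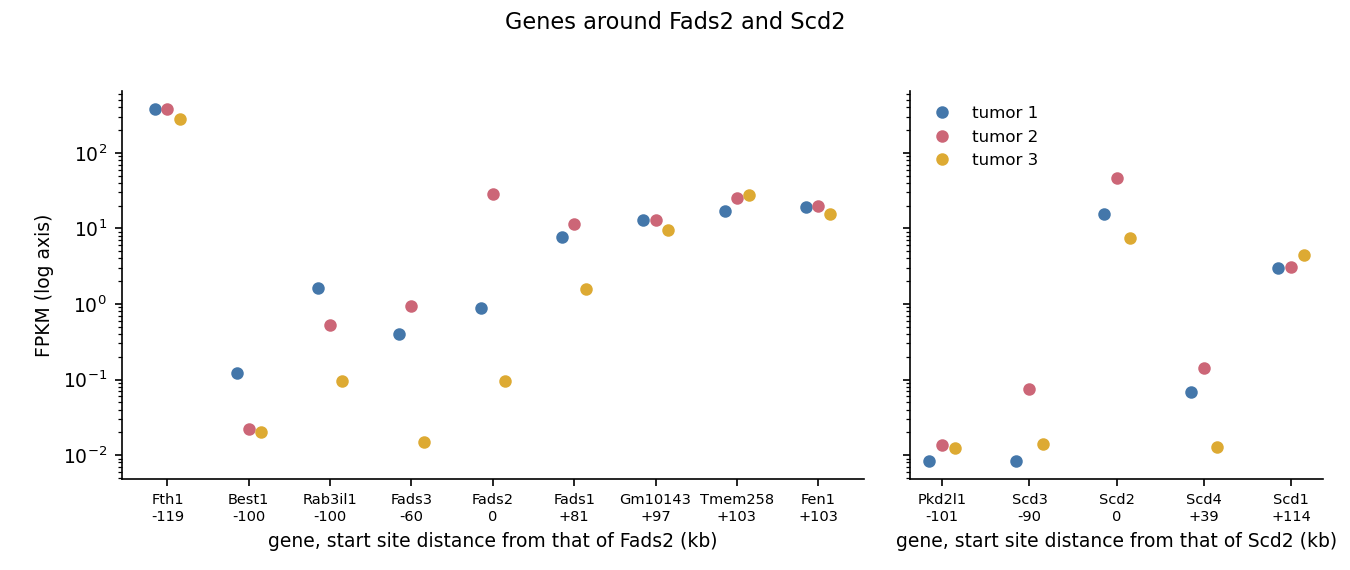
FPKM on a log axis of the genes whose start lies within 120 kb of that of Fads2 (left) or Scd2 (right), in chromosome order, with the distance of the start sites in kb. Fads2 and Scd2 stand highest in tumor 2, while Scd1, 114 kb from Scd2, is highest in tumor 3.

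Srebf1 encodes SREBP-1, the transcription factor that activates genes of fatty acid synthesis. Tumor 1 had 12.5 FPKM (2161 reads), tumor 2 had 29.2 (3124 reads) and tumor 3 had 10.8 (1268 reads). Tumor 2 stood above the other tumors, 2.34-fold over tumor 1 with a counting interval of 2.22 to 2.47 and 2.70-fold over tumor 3 with an interval of 2.53 to 2.88. Its mean of 17.5 ± 10.2 FPKM (SD, n = 3) was 11.7 without tumor 2. Srebf1 overlaps the end of Rai1 on the opposite strand, which had 5.76, 9.56 and 5.16 FPKM, and whether counting used strand is not given in the sources used here.

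Of the 10 genes 9 had 1 FPKM or more in at least 1 tumor, Fads2 through tumor 2 alone. Of these 9 genes 5 had a highest FPKM of 2 times the lowest or more, calculated on FPKM + 0.1, against 37.5% of all genes that met this filter. They were Elovl6, Scd2, Fads1, Fads2 and Srebf1. Acacb, below the filter, had a range of 2.79-fold on the same scale. The count of 5 was 2 without tumor 2, where Fads2 no longer passed the filter, against 19.2% of all genes. It was 3 without tumor 3, against 27.6%. Tumor 2 had 2 times the FPKM of tumor 1 or more for 3 of these 9 genes, against 11.1% of all genes, and the reverse held for none of the 9 against 16.6%. Against tumor 3, tumor 2 was 2 times higher or more for 5 of the 9 genes where 13.1% of all genes were, and none of the 9 was 2 times higher or more in tumor 3 where 5.43% of all genes were. Tumor 1 was 2 times above tumor 3 or more for 3 of the 9 genes, Scd2, Fads1 and Fads2, against 15.4% of all genes, and the reverse held for none against 4.32%. With a pseudocount of 1 the count of 3 became 1.

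Tumor 2 was the highest tumor for 8 of the 9 genes, against 33.9% of all genes that passed the filter, and for Acacb below the filter as well. For Fads2, which passed through tumor 2 alone, this was fixed by the filter. With FPKM rescaled to the same sum in every library, Acaca was highest in tumor 1 instead. The order tumor 2, tumor 1, tumor 3 was found for 7 of the 9 genes, all but Acly and Scd1, against 17.6% of all genes. With median-of-ratios factors Acaca left this order, as its values in tumors 1 and 3 were then nearly equal. The choice to count these orders was made after the values had been seen. The libraries themselves were shifted against each other, with a median log2 ratio of tumor 2 to tumor 1 of -0.19 over all genes that passed the filter. Median-of-ratios factors moved this median by 0.16 and rescaling to the same sum moved it by -0.13. The median of the 9 genes was 0.46, above that of all genes, and it was 1.16 for tumor 2 against tumor 3 where all genes had 0.07. The spread of the 9 genes over the tumors had a median coefficient of variation of 38.6%, against 28.9% over all genes.

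**Figure D3:**
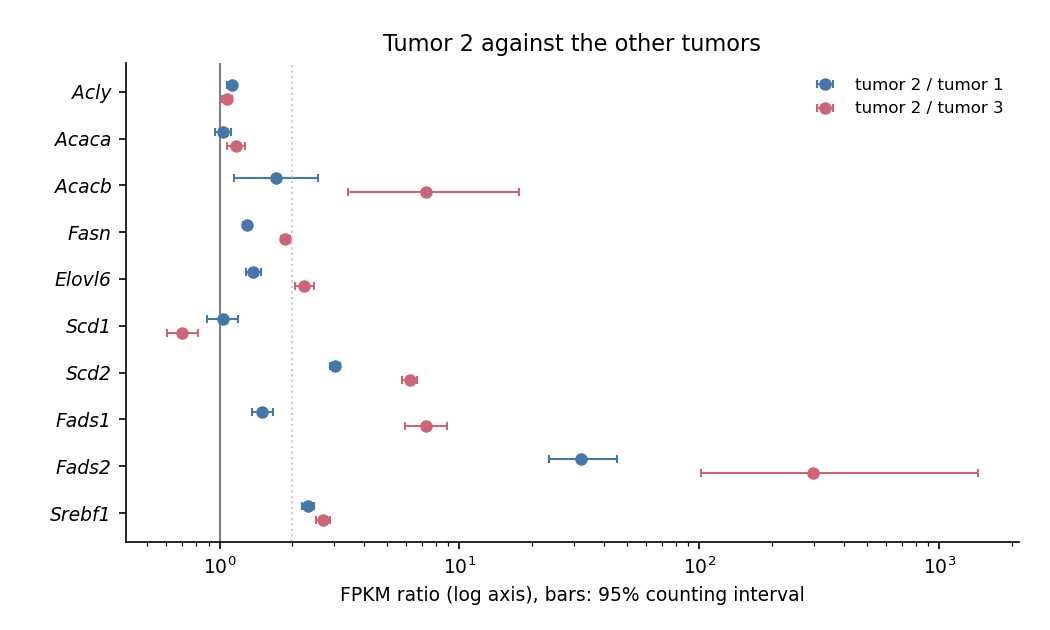
Ratio of the FPKM of tumor 2 to tumor 1 and to tumor 3 for the 10 genes, on a log axis, with exact 95% intervals from the reads and a dotted line at a ratio of 2. All ratios but that of Scd1 against tumor 3 (0.701) are above 1, from 1.03 for Acaca and Scd1 against tumor 1 to 298 for Fads2 against tumor 3, and with FPKM rescaled to the same sum in every library the ratios of Acaca and Scd1 to tumor 1 fall below 1.

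The other genes of the pathway were taken from 9 lists with 79 genes, all of which were found. Of these, 53 had 1 FPKM or more in every tumor, against 28.4% of all genes. At 5 FPKM or more in every tumor 28 passed, with no share of all genes calculated. A filter of 1 FPKM in at least 1 tumor was passed by 63 genes, of which 26 had a 2-fold range, against 37.5% of all genes, and 26 were highest in tumor 2, against 33.9%. Counts of pathway genes by their highest tumor were made on FPKM only and not under the other scalings. Their median log2 ratio of tumor 2 to tumor 1 was -0.03, between that of the 9 genes above and that of all genes. Tumor 2 was 2 times above tumor 1 or more for 4 of the 63 genes, against 11.1% of all genes, and the reverse held for 9, against 16.6%. Tumor 2 was 2 times above tumor 3 or more for 13, against 13.1%, and the reverse held for 4, against 5.43%. Tumor 1 was 2 times above tumor 3 or more for 13, against 15.4%, and the reverse held for 2, against 4.32%. The order tumor 2, tumor 1, tumor 3 was found for 15, against 17.6%.

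The supply list covers citrate export, acetyl-CoA and NADPH. Of its 6 genes, 4 had 1 FPKM or more in every tumor, against 28.4% of all genes. G6pdx, the entry enzyme of the pentose phosphate pathway that makes NADPH, had 11.8, 16.4 and 19.2 FPKM in tumors 1, 2 and 3. Pgd, the next NADPH-forming enzyme there, had 7.12, 21.7 and 9.93 FPKM and was highest in tumor 2. Slc25a1, the mitochondrial citrate carrier, was also highest in tumor 2, with 6.81, 11.8 and 6.62 FPKM. Malic enzyme 1, another source of NADPH in adipose tissue and liver, was nearly absent. Its gene Me1 had 9, 23 and 0 reads.

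Among 11 regulators of acetyl-CoA carboxylase, 9 had 1 FPKM or more in every tumor, against 28.4% of all genes. Of the 10 that passed the filter, 2 had a 2-fold range, against 37.5%, and 7 were highest in tumor 2, against 33.9%. Thrsp is in both counts and passed through tumor 2 alone. Prkag1 and Prkag2 are among the 7 by small margins. Prkag2, named after its values were seen, had 3.19, 3.41 and 3.40 FPKM in tumors 1, 2 and 3. The kinase AMPK inactivates the enzyme. Its subunit gene Prkag1 had 30.9, 31.4 and 30.7 FPKM, and Prkaa1 for a catalytic subunit had 12.004, 8.16 and 8.34. Stk11, for the kinase that activates AMPK, had 10.9, 17.6 and 11.4 FPKM. Thrsp, for a protein abundant in lipogenic adipose tissue and liver, had 130 reads in tumor 2 and none in the others. Its 3.13 FPKM in tumor 2 were at least 70.2-fold higher than in tumor 1 and at least 47.4-fold higher than in tumor 3, with 3 reads taken as the limit for each library without a read. Mid1ip1, for its paralog that promotes polymerization of the carboxylase, was highest in tumor 3, with 3.21, 3.64 and 10.8 FPKM, and is named after its values were seen.

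Of 12 other elongation genes, 7 had 1 FPKM or more in every tumor, against 28.4% of all genes. Elovl5, the elongase of polyunsaturated fatty acids, was the highest, with 76.9 FPKM in tumor 1 and 26.8 and 27.5 in tumors 2 and 3. Tecr had 22.1, 26.0 and 17.2 FPKM and Hsd17b12 had 18.6, 14.2 and 16.8, both for reductases of the elongation cycle. Elovl5 acts on products of Fads2, and its order of tumors was not that of Fads2. Among 6 other desaturation genes, 2 had 1 FPKM or more in every tumor, against 28.4% of all genes. Cyb5a, the cytochrome that passes electrons to the desaturases, had 61.6, 6.30 and 13.5 FPKM and was highest in tumor 1, and its reductase gene Cyb5r3 had 6.52, 9.55 and 4.996. Fads6 stayed below 1 FPKM, with 0.964, 0.499 and 0.384.

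The list of SREBP processing and lipogenic transcription factors had 10 of 12 genes at 1 FPKM or more in every tumor, against 28.4% of all genes, and 6 of the 11 that passed the filter were highest in tumor 2, against 33.9%. Scap is among these 6 by a small margin, with 8.85 FPKM in tumor 1 and 8.99 in tumor 2. Srebf2, which encodes the SREBP of cholesterol synthesis, had 24.9, 44.2 and 16.05 FPKM, with tumor 2 the highest as for Srebf1. Insig1, which retains SREBP in the endoplasmic reticulum and is itself an SREBP target, had 8.83, 10.8 and 3.78 FPKM. Nr1h2, for the liver X receptor beta, had 18.8, 26.8 and 19.8 FPKM and Usf2 had 15.996, 22.9 and 16.5. Nr1h3, for the liver X receptor alpha, which is typical of macrophages and liver, had the widest range of the list, with 4.06, 2.49 and 0.191 FPKM. The summed FPKM of macrophage markers was also highest in tumor 1 and lowest in tumor 3, with Cd68 alone highest in tumor 2, and their part in this range was not tested. Mlxipl, for the glucose-responsive factor ChREBP, had at most 8 reads in a tumor, and it, Insig1 and Scap are named after their values were seen.

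For acyl-CoA synthesis and esterification, 6 of 11 genes had 1 FPKM or more in every tumor, against 28.4% of all genes. Of the 10 that passed the filter, 6 had a 2-fold range, against 37.5%, and 2 were highest in tumor 2, against 33.9%. Acsl1, Acsl3 and Dgat2 passed through tumor 1 alone, and are named for this after their values were seen. Acsl5 had 35.1, 25.2 and 24.7 FPKM and Acsl4 had 26.5, 14.9 and 11.4, both for long-chain acyl-CoA synthetases and both highest in tumor 1. Gpat4 had 7.43, 7.30 and 5.56 FPKM. Gpat3, for a glycerol-3-phosphate acyltransferase of the same reaction, had 5.38, 9.42 and 0.467 FPKM, low in tumor 3 and the widest range of the list. Mitochondrial fatty acid synthesis is separate from the cytosolic pathway. Of its 7 genes, 6 had 1 FPKM or more in every tumor, against 28.4% of all genes. H2-Ke6, also named Hsd17b8, had 11.9, 14.7 and 20.3 FPKM, Mcat 3.58, 7.44 and 3.81, Ndufab1 5.49, 4.91 and 3.87 and Acsf3 1.91, 3.38 and 1.54.

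Fatty acid oxidation, the opposing pathway, had 8 of 10 genes at 1 FPKM or more in every tumor, against 28.4% of all genes. Of the 9 that passed the filter, 2 were highest in tumor 2, against 33.9%. Acadvl had 16.3, 14.4 and 17.03 FPKM, Hadhb 14.7, 7.19 and 9.99 and Hadha 10.1, 8.82 and 7.52. Cpt1b, for the muscle form of the carnitine palmitoyltransferase that malonyl-CoA inhibits, had 0.724, 1.24 and 0.343 FPKM and passed the filter through tumor 2 alone. Of 4 genes of fatty acid uptake and binding, 1 had 1 FPKM or more in every tumor, against 28.4% of all genes. This gene was Slc27a4, with 3.82, 6.33 and 4.30 FPKM. Fabp5 had 9.08, 3.53 and 0.729 FPKM and Cd36, which passed the filter through tumor 2 alone, had 0.888, 1.64 and 0.738.

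**Figure D4:**
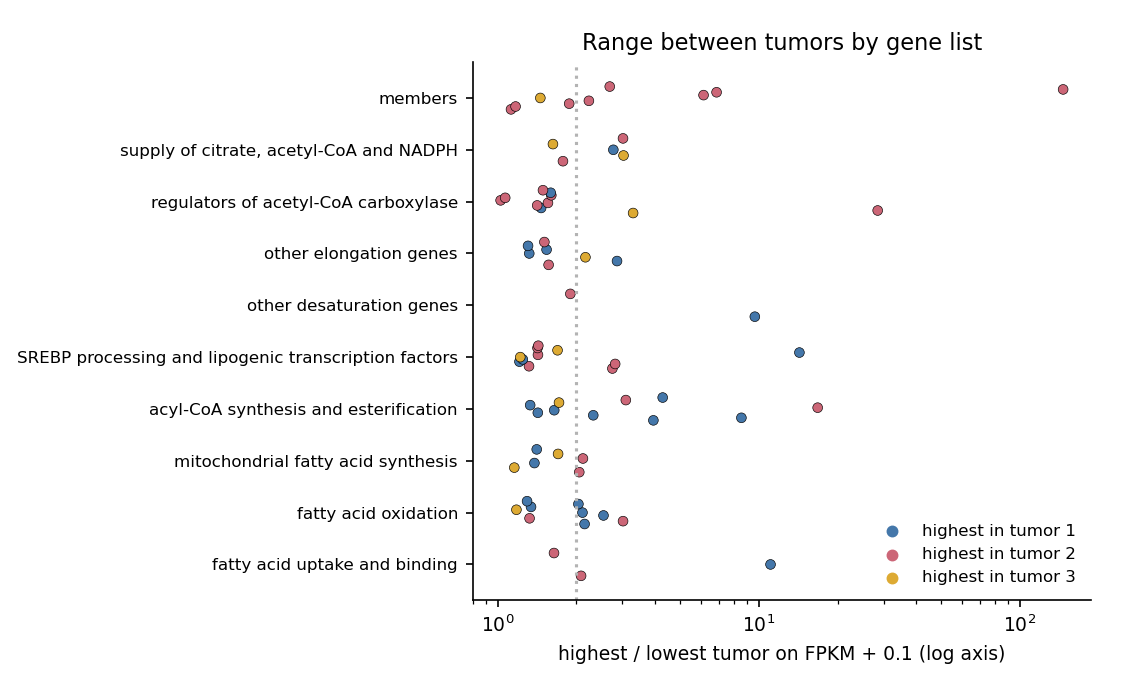
Ratio of the highest to the lowest tumor on FPKM + 0.1, on a log axis, for each gene with 1 FPKM or more in at least 1 tumor, by list, colored by the tumor in which it was highest. The 10 named genes ("members", 9 points) include the widest range, Fads2 at 146, followed among the other lists by Thrsp at 28.5.

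The tissue was checked with lists of cell type markers. T-cell genes were high in all tumors, with 9 of 9 at 1 FPKM or more in every tumor, against 28.4% of all genes. Their summed FPKM was 1296, 973 and 1354 in tumors 1, 2 and 3. Cd8b1 was the most abundant by mean, at 435, 166 and 443. The sum was lowest in tumor 2, while 4 of the 9 genes were highest there, Cd3e, Cd3g, Cd5 and Lck, named after their values were seen. The summed FPKM of the markers of several other cell types differed between tumors. In bulk tissue fewer cells of a type and less RNA per cell cannot be told apart.

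Adipocyte markers were highest in tumor 2, as were 8 of the 9 members that passed the filter, against 33.9% of all genes. The exception was Scd1, with 2.99, 3.08 and 4.40 FPKM in tumors 1, 2 and 3. All 12 white adipocyte genes had their highest FPKM there, but Lep, Retn and Adrb3 on at most 3 reads, and a gene without a read is listed at 0.9 read, which gives its highest FPKM in tumor 2, the library of lowest depth. Pparg and Lpl differed little between tumors 1 and 2, with 0.176 and 0.196 FPKM for Pparg and 0.516 and 0.689 for Lpl. The sum of the white adipocyte list was 2.59, 24.2 and 0.347 in tumors 1, 2 and 3. Cfd, which encodes adipsin and was the most abundant by mean, had 0.882, 14.5 and 0.0470 FPKM, from 25, 254 and 0 reads. Adipoq, the defining marker adiponectin, had 4, 57 and 0 reads, and leptin (Lep) had 0, 1 and 0. Both brown adipocyte genes were found in tumor 2 alone, with 66 reads for Cidea and 37 for Ucp1, and their sum was 0.0431, 4.18 and 0.0637 FPKM. Adipoq, Lep and Ucp1 are named as defining markers, and Retn, Adrb3, Pparg and Lpl after their values were seen. Thrsp was likewise detected in tumor 2 alone. The part of adipocytes in the values of Fads2, Scd2 and the other genes high in tumor 2 was not tested.

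Pancreatic acinar genes had the same order of tumors as Fads2, with 8 of 8 highest in tumor 2, sums of 87.0, 440.3 and 0.657 FPKM and Ctrb1 at 33.9, 198 and 0.0494. Fibroblast genes had sums of 10.1, 41.0 and 0.345 FPKM, with Col1a1 at 1.63, 15.5 and 0.315 and 4 of 5 genes, all but Dcn, highest in tumor 2. Their part in the members' values was not tested.

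The sum of macrophage genes was highest in tumor 1, with 403, 134 and 35.8 FPKM, of which Lyz2 had 215, 33.1 and 20.3. Of its 7 genes 1 was highest in tumor 2, Cd68 with 19.6, 51.2 and 9.27 FPKM, named after its values were seen. B-cell genes were highest in tumor 3, with sums of 56.2, 13.7 and 104 FPKM and Cd79a at 23.1, 7.31 and 49.0. The sum of cell cycle genes was highest in tumor 1, with 141, 84.9 and 53.0 FPKM and Mki67 at 38.7, 30.4 and 12.04, while 1 of the 7 genes, Mcm2, was highest in tumor 2. None of these 3 lists had its highest sum in tumor 2. Hepatocyte transcripts were at or near 0, as 5 of 6 genes, Alb among them, had no read in any tumor and Apoh had 9, 1 and 2 reads, so that its sums of 0.306, 0.231 and 0.242 FPKM are those of genes near no read. Epithelial genes had sums of 0.588, 1.88 and 0.575 FPKM with Epcam at 0.415, 1.14 and 0.307, highest in tumor 2, and Csn2 and Wap had no read. Skeletal muscle genes had sums of 5.31, 6.02 and 5.15 FPKM, also highest in tumor 2, most of it from Mylpf at 4.44, 4.81 and 4.71.

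**Figure D5:**
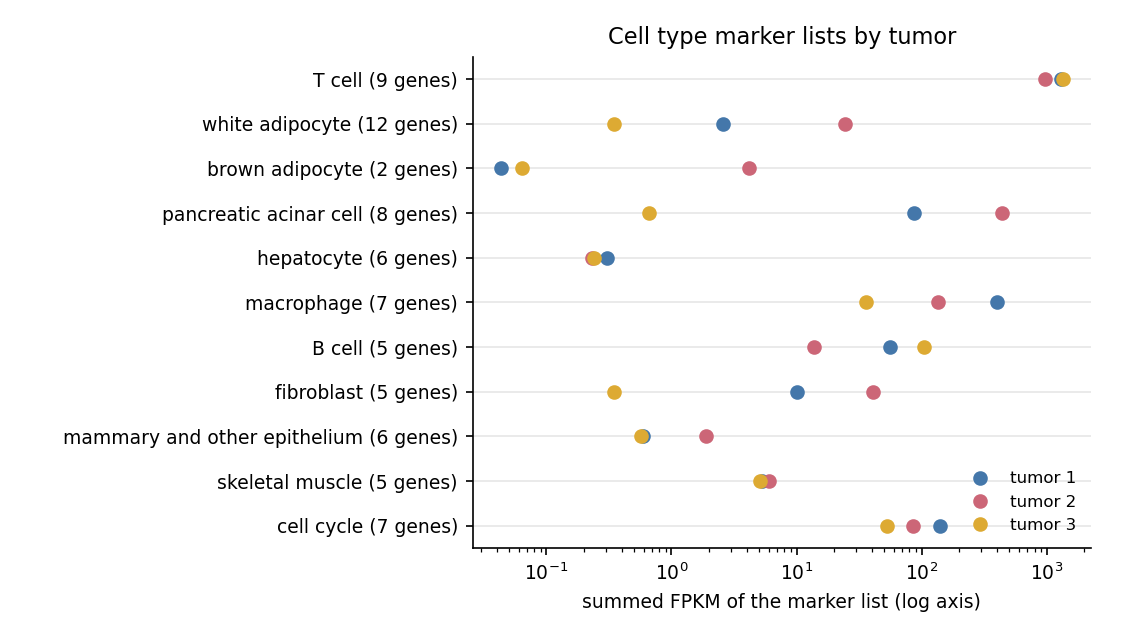
Summed FPKM of each cell type marker list in each tumor on a log axis, with the number of genes per list. Tumor 2 is the highest for adipocyte (24.2 FPKM for white adipocyte genes), pancreatic and fibroblast lists and also for epithelial (1.88) and skeletal muscle (6.02) lists, while T-cell genes are high in all 3 tumors.

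The genes whose pattern over the 3 tumors was most like that of Acaca were Glt8d1, Mamdc4 and Zfp623, by the Euclidean distance of log2 FPKM centered on the mean of the tumors, among 9715 genes with 1 FPKM or more in every tumor. Glt8d1 had 2.53, 2.63 and 2.23 FPKM, at a distance of 0.00746. A flat pattern is common, and 331 of these genes lay within 0.1 of Acaca. For Fads2, compared on FPKM + 0.1 with 4399 genes of 10 FPKM or more in at least 1 tumor, 5 genes lay within a distance of 1. The nearest were Cfd, the T-cell receptor gamma constant gene Tcrg-C3 with 0.551, 10.7 and 0.0667 FPKM, and Ptpn5 with 0.157, 15.2 and 0.0166. This comparison was chosen after the values of Fads2 had been seen.

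Promoter windows were found for 7 of the 10 genes, with 3 windows for Srebf1 and 9 in all, and none for Fads1, Scd1 and Scd2. As for Acaca, the window of Acacb lies at a start within the gene, 18983 bases downstream of the start of its span. So do 2 windows of Srebf1, 1954 and 12110 bases downstream. They were searched on both strands for TCACNCCAC (a sterol regulatory element bound by SREBP), CACGTG (an E-box), CCAAT and GGGCGG. No window held TCACNCCAC, which occurs in 1.24% of the 32851 windows of all genes, or CACGTG, which occurs in 7.15%. CCAAT was found in 5 of the 9 windows, against 37.4% of all windows, the Acacb window and the Srebf1 window at 12110 bases among them. These windows belong to 4 of the 7 genes, Acly, Acacb, Fasn and Srebf1, and the share of all genes was not calculated. GGGCGG was found in 4 windows, of Acly, Fads2 and 2 of Srebf1, against 35.7%. No match overlapped a match to another of these motifs. The windows of Elovl6 and Acaca held none of the motifs. No motif was present in all 9 windows.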

How the data were processed

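RNA-seq values of 3 Dnmt3b+/- PTCL were taken as deposited, as FPKM that the authors calculated with SeqMonk after alignment with STAR to mm10. Depth was recovered from genes with no reads, whose value equals 0.9 read, and reads per gene followed from depth and exon length, with a tolerance of 0.01 for whole reads. On chromosomes 14 to 19, where annotated exons gave whole reads for 60.0% of genes against 98.5% elsewhere, the length was searched for. The recovery was tested on simulated data, but no outcome of that test is given here. Genes were counted as 2-fold different between tumors on FPKM + 0.1, among those with 1 FPKM or more in at least 1 tumor, while ratios of single members with counting intervals are on FPKM. Genes named by rule are the 10 members, the 3 most abundant and the most variable gene of each pathway list, the most abundant gene of each marker list and the 3 genes most like Acaca. The other named genes, among them Dcn, Mcm2, Alb, Csn2 and Wap, fall outside this rule and were named with their values known. Members and lists were chosen with earlier results of these data known. Scaling, pseudocount, filter, thresholds and single tumors were varied. The tools were SciPy 1.17.1, NumPy 2.4.6 and pandas 2.3.3 under Python 3.11, with figures by matplotlib 3.10.9.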

Additional observations from a re-analysis of the deposited data

How the results depend on the processing

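Of 56 alternative values of counts and percents of genes, 43 stayed within 1.5 times and 13 moved. Means over 3 tumors cannot leave 1 SD when a tumor is left out, so these say nothing of stability, and the mean of Fads2 was 9.84 FPKM with and 0.490 without tumor 2. Rescaling to the same sum in every library changes the unit of the means. At 5 FPKM, 4 of the genes and 28 pathway genes passed in every tumor, with no share of all genes calculated at this threshold. A 3-fold range was found for 3 of the genes that passed the filter, and the share of all genes was not calculated at 3-fold. With single tumors left out 2 to 5 of the genes had a 2-fold range. The share of all genes with a 2-fold range was 21.02% without the filter, 24.9% with a pseudocount of 1 and 18.1% to 27.6% with a tumor left out. In the order by mean, 4 genes kept their place when the median was used and 2 to 10 with a tumor left out. With a pseudocount of 1, tumor 1 was 2 times above tumor 3 or more for 1 of the genes. The cause of these changes was not tested. Alternatives for the ratios between tumors and for the orders were chosen after seeing the data. No paired analysis was possible because each tumor is from a different mouse. Depth limits Acacb and Fads2 in tumor 3, with 8 and 3 reads.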
